A study of Drosophila melanogaster with 4 samples.

Results

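BomT3, Drs, SPE and trbd are 4 genes of the Toll and IMD arms of fly immunity, out of 1449 genes with a value in this comparison of pilocarpine-fed and untreated Drosophila melanogaster heads. They were picked by symbol, or by the current NCBI symbol of their gene ID, with their ratios in these same arrays already known. Their values are therefore a description, and the calls of the fit over all genes are given for them only as counts that support nothing. BomT3 (NCBI gene 42598), Drs (38419) and SPE (42791) were each measured by 1 probe and trbd (41179) by 2.

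The flies were unmated Oregon-R (wild-type) males, 3 to 4 days old at the start. They were fed for 7 days on medium with pilocarpine at 1.5 mg/ml, a drug that activates muscarinic acetylcholine receptors, or for the same time on normal food. Head RNA from a pilocarpine pool and a normal-food pool of the same set of vials was hybridised together on each of 4 two-colour cDNA arrays, which makes 4 biological replicates from 8 pools. The treated RNA was in Cy5 on replicates 1 and 2 and in Cy3 on replicates 3 and 4. Pools of whole heads hold brain, eye, fat body, muscle and cuticle together, so that a change in the number of cells of one type and a change in RNA per cell cannot be told apart.

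Drosophila has no antibodies and meets infection with receptors and secreted peptides. In the Toll pathway, recognition of fungi or Gram-positive bacteria starts a chain of serine proteases that ends in cleavage of the ligand Spätzle, which then binds the receptor Toll and frees the NF-kappaB factors Dif and Dorsal. In the IMD pathway, peptidoglycan of Gram-negative bacteria acts through the adaptor Imd, the kinase Tak1 and ubiquitin chains to activate the factor Relish. The fat body, part of which lies in the head, is the main source of the peptides that both pathways switch on.

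Among the 4 genes, SPE stands highest in the chain: it encodes the Spätzle-processing enzyme, the last protease before the ligand. Drs encodes drosomycin, an antifungal peptide and the standard readout of Toll. BomT3 belongs to the Bomanins, short secreted peptides made under Toll control and a family that carries much of the resistance that Toll gives. The gene trbd encodes trabid, a deubiquitinase that removes ubiquitin chains and restrains IMD signalling at Tak1. Drs, SPE and BomT3 thus belong to Toll, and trbd acts as a brake on IMD.

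Values are log2 ratios as normalized by the authors, with each array's median over probes set to 0. The labels name the dye of each RNA but not which dye was the numerator. Here the numerator was taken to be Cy5, the default of the scanner software, and replicates 3 and 4 were turned in sign so that a positive value means more RNA with pilocarpine. This direction is likely but not settled. If the numerator was the treated RNA on every array, replicates 3 and 4 keep their deposited sign. The mean of each of the 4 genes is given in that reading as well. Means of other genes are as turned unless stated. Over genes, replicates 3 and 4 correlated at r = 0.40 and replicates 1 and 2 at r = -0.05, and these pairs do not depend on the reading. The pairs across dye orientations conflict: as turned, replicate 2 was at r = 0.19 with replicate 3 and 0.40 with replicate 4, but replicate 1 was at -0.12 and -0.24 with them, and not turned each of these signs is opposite. The correlations between arrays thus favour neither reading.

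On replicates 3 and 4 all 4 genes lay above the array median as turned, and all lay below it in the other reading. Of 1245 genes measured on both arrays, 28.3% lay above the median on both as turned. On replicate 1 the 4 genes were scattered around the median, and on replicate 2 only BomT3 and the second trbd probe had a value. What the 4 genes share is therefore a side of the median on the dye-swapped arrays, which turns with the reading of those 2 arrays. The sizes of their ratios there differed.

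**Figure D1:**
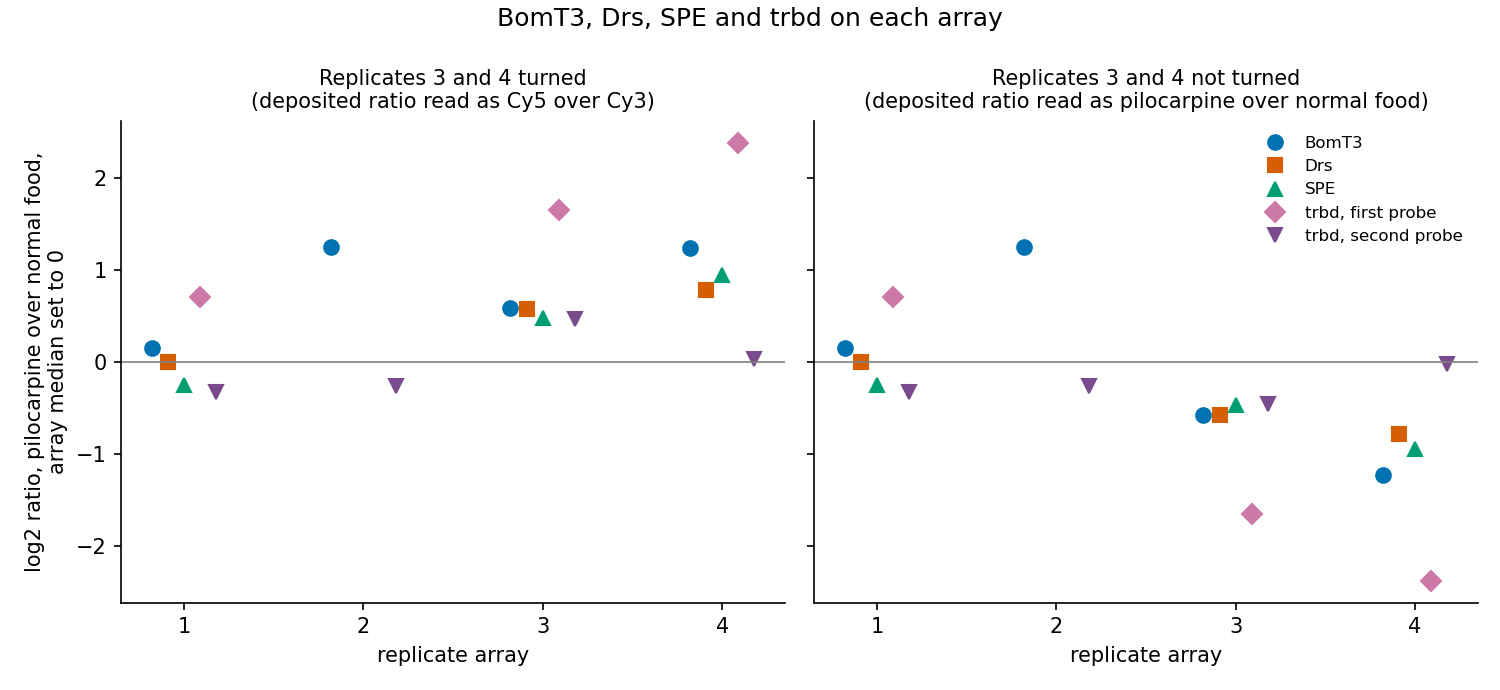
Log2 ratio of pilocarpine over normal food for each probe of the 4 genes on each replicate array, with the array median at 0 and one point per probe (the mean of its paired spots). With replicates 3 and 4 turned (left), every point on those arrays lies above 0, from 0.03 to 2.38; with their deposited sign kept (right), the same points lie below 0.

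BomT3 was the one gene of the 4 that lay above the median on every array as turned. Its log2 ratios were 0.15, 1.25, 0.58 and 1.23 on replicates 1 to 4. The ratio was high on replicates 2 and 4, where BomT3 ranked 10 of 969 and 14 of 1245 genes from the top, and close to the median on replicate 1, where it ranked 408 of 1432. Its mean was 0.80 ± 0.54 (SD, n = 4), a 1.74-fold ratio, and rank 12 of 1444 genes. Among 748 genes with 4 values, 7.35% lay above the median 4 times. In the other reading replicates 1 and 2 stand against replicates 3 and 4, and the mean was -0.10 ± 1.06 (SD, n = 4). The 2 spots of the BomT3 probe differed by 0.05 to 0.17 on the log2 scale, so that the spread between arrays was larger than that between spots.

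Drs had a value on 3 arrays. Its log2 ratios were -0.001, 0.57 and 0.78 on replicates 1, 3 and 4. Drosomycin RNA was thus at the array median on replicate 1 and above it, as turned, on both dye-swapped arrays, where it ranked 135 of 1444 and 52 of 1245 genes. The mean was 0.45 ± 0.41 as turned and -0.45 ± 0.40 in the other reading (SD, n = 3). With 1 array of one dye orientation and 2 of the other, the plain mean leans towards the dye-swapped arrays, and equal weight to both orientations gave 0.34.

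SPE lacked a value on replicate 2 as well. Its log2 ratios were -0.25, 0.48 and 0.95 on replicates 1, 3 and 4. SPE lay below the median on replicate 1, at rank 1173 of 1432 genes, and above it, as turned, on replicate 3, at rank 191 of 1444, and on replicate 4, at rank 33 of 1245. The mean was 0.39 ± 0.60 as turned (SD, n = 3), smaller than its SD. In the other reading all 3 arrays lay below the median and the mean was -0.56 ± 0.35 (SD, n = 3), rank 16 of 1444 genes from the bottom. For SPE the deposited ratios were thus on the same side of the median in both dye orientations. Equal weight to both orientations moved the mean to 0.23, and without replicate 4 it was 0.11.

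The probes of trbd, the deubiquitinase gene, disagreed. Its first probe had log2 ratios of 0.70, 1.65 and 2.38 on replicates 1, 3 and 4, and no value on replicate 2. Among probes with 1 listed gene, that probe ranked 9 of 1490 on replicate 1, 4 of 1505 on replicate 3 and 1 of 1296 on replicate 4. Its second probe had -0.33, -0.26, 0.46 and 0.03 on replicates 1 to 4, and ranked between 212 of 1505 and 1321 of 1490. As turned, the first probe put trbd above the median on each of its arrays, with a mean of 1.58 ± 0.84 (SD, n = 3) or 2.98-fold. The second put it at the median, with -0.03 ± 0.36 (SD, n = 4). In the other reading these means were -1.11 ± 1.61 (SD, n = 3) and -0.27 ± 0.18 (SD, n = 4). The second probe then lay below the median on all 4 arrays.

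The distance between the trbd probes was 1.63 on the log2 scale (root mean square over the 3 arrays they share), the second largest among 53 genes with a pair of probes on at least 3 arrays, whose median distance was 0.39. The spots of the first probe differed by 0.02 to 0.23. The spots of the second differed by 0.63, 0.60 and 0.60 on replicates 1, 2 and 4 and by 0.10 on replicate 3, where 90% of listed probes had spots within 0.31, 0.47 and 0.36 of each other on replicates 1, 2 and 4. The mean over probes, 0.54 ± 0.70 (SD, n = 4; -0.58 ± 0.66 in the other reading), mixes both on replicates 1, 3 and 4 and holds the second alone on replicate 2. Without replicate 2 it was 0.81.

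**Figure D2:**
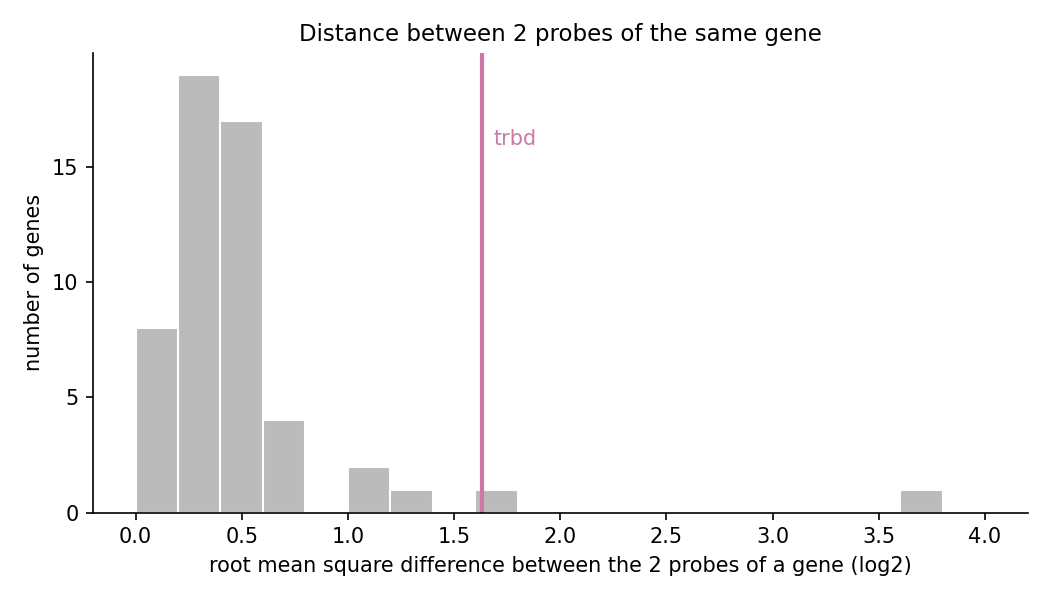
Number of genes (vertical axis) by the root mean square difference in log2 ratio between the 2 probes of a gene over the arrays they share (horizontal axis), for the 53 genes with such a pair. The line marks trbd at 1.63, far above the median of 0.39; 1 gene, Obp19c, lay farther out.

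By mean log2 ratio as turned the order was BomT3 at 0.80, trbd at 0.54, Drs at 0.45 and SPE at 0.39, and in the other reading BomT3 at -0.10, Drs at -0.45, SPE at -0.56 and trbd at -0.58. Neighbours in either order differed by less than the SD of one of the genes compared. None of the 4 passed limma with Benjamini-Hochberg adjustment at 0.05, where 0.139% of 1444 genes passed (apolpp and Obp19c, both higher), and none passed in the other reading, where no gene did although 126 had an unadjusted p under 0.05. The one exception among the settings run was trbd without replicate 2, where 1.06% of 1228 genes passed, and its value there is a mean of 2 probes that disagree. Not every setting tested all 4 genes. Drs and SPE, with 3 arrays each, were not tested where a fit needed 4 arrays or left out replicate 1, 3 or 4. SPE was also not tested with the local centring described below. Since the genes were chosen with this contrast known, nothing is read from these calls. The number of arrays limits the precision of every value here.

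**Figure D3:**
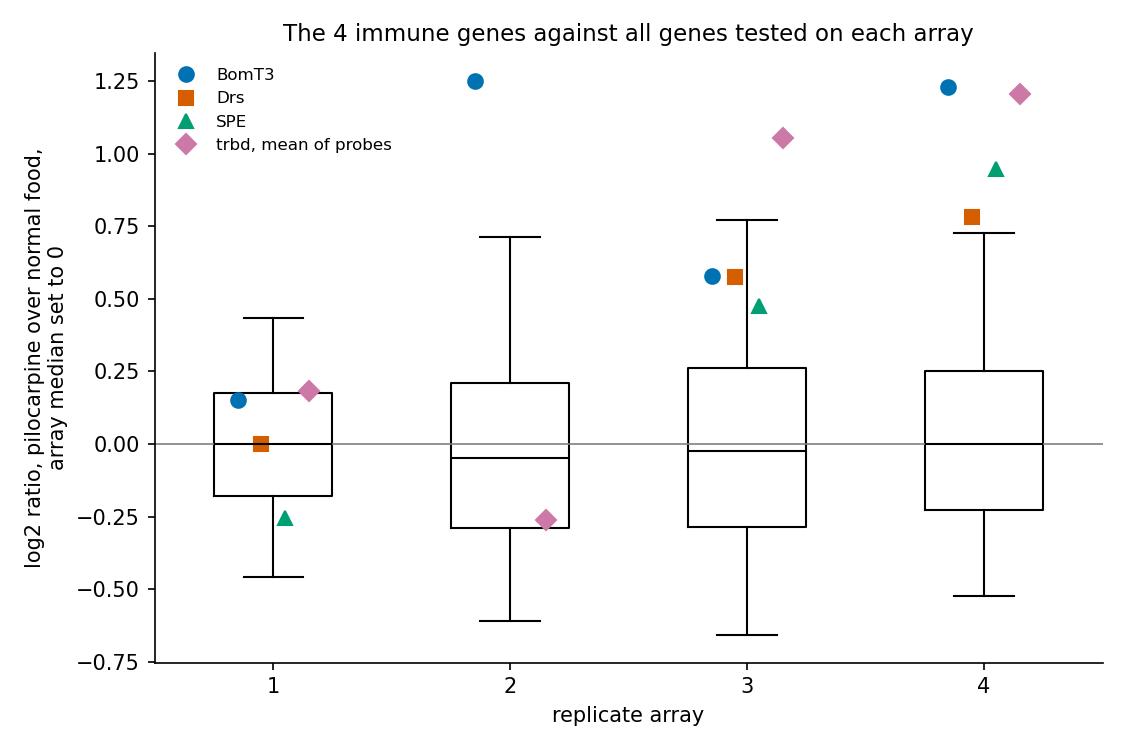
Log2 ratio of pilocarpine over normal food as turned, by replicate array, for all genes tested (boxes from the first to the third quartile with the median line, whiskers to the 5th and 95th percentiles) and for the 4 immune genes (points; trbd is the mean of its probes). On replicate 4 all 4 points lie beyond the upper whisker, between 0.78 and 1.23, and on replicate 1 they lie between -0.25 and 0.18.

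Probes next to each other in the spot numbering had alike ratios, and this touches Drs, SPE and the second trbd probe. Across pairs of adjacent listed probes of different genes, the Pearson correlation was 0.60, 0.35, 0.55 and 0.52 on replicates 1 to 4 (193 to 422 pairs, which share an array and a place on it). At 100 steps apart it lay between -0.16 and 0.00. On replicate 3 it came back to 0.47 at 12, 23 and 35 steps, with 0.43 at 24 and 0.35 at 36. A row of 24 spots, or 12 probes, was inferred from this. At 24 steps it was 0.25, 0.04 and 0.13 on replicates 1, 2 and 4, so the inferred row rests on replicate 3. The comparison of neighbouring probes was chosen after the data were seen.

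Of the genes that lay closest to SPE over its 3 arrays, the first was igl, whose probe is the one next to it in the spot numbering. The igl probe had -0.22, 0.55 and 0.92 on replicates 1, 3 and 4, a root mean square difference of 0.05 from SPE, the smallest among 2772 probes. It was first by a narrow margin. The next probes, with no listed gene and at 2931 and -2947 steps from SPE, also differed from it by 0.05. Around Drs, CG9396 lay 2 steps away and had -0.42, 0.34 and 0.55 on the same arrays, and CG4098 lay 3 steps away and had -0.24, 0.58 and 0.35. The adjacent probe, which has no listed gene, had -0.16, 0.42 and 0.72, and another unlisted one 3 steps before Drs had -0.40, 0.38 and 0.13. All 4 measured neighbours of Drs were thus on the same side of the median as Drs on replicates 3 and 4. Around the second trbd probe, at 0.46 on replicate 3, the measured neighbours had 0.43 and 0.27 on that array. The measured neighbour of BomT3 had 0.16 and -0.26 on replicates 3 and 4. Within 3 steps of all 5 probes, 8 neighbours had a value on replicate 3 and 8 of them lay above the median as turned. On replicate 4, 7 neighbours had a value and 5 of them lay above it. These neighbours were unevenly spread: 4 of the 8 were those of Drs, and none lay near the first trbd probe. Among all probes of an array, as many lie above its median as below by centring. The part of array position in the ratios of SPE was not tested, since too few probes with a value lie near it.

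For the other 3 genes a local value could be given, as turned unless stated. After each probe was set against the median of the other probes of its block in its own and the adjoining rows, BomT3 was at 0.87 ± 0.52 (SD, n = 4) and Drs at 0.31 ± 0.23 (SD, n = 3). BomT3 was as large as with array medians and Drs smaller, and Drs then lay at 0.13, 0.22 and 0.56 on replicates 1, 3 and 4. The first trbd probe was at 1.11 ± 0.63 (SD, n = 3) and the second at -0.24 ± 0.18 (SD, n = 4). The second then lay at -0.01 and -0.18 on replicates 3 and 4, no longer above 0 there. The local medians rest on 3 to 18 probes each. Those of BomT3 rest on 3 or 4 probes, close to the fewest allowed, and those of Drs on 17 or 18. The local value of BomT3 is thus the less certain of these. The mean of both trbd probes was 0.25 in this setting, and 0 of 1361 genes passed (limma, 99 at an unadjusted p under 0.05). In the other reading the local means were -0.07 for BomT3 and -0.22 for Drs. For the first and second trbd probes they were -0.63 and -0.15.

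**Figure D4:**
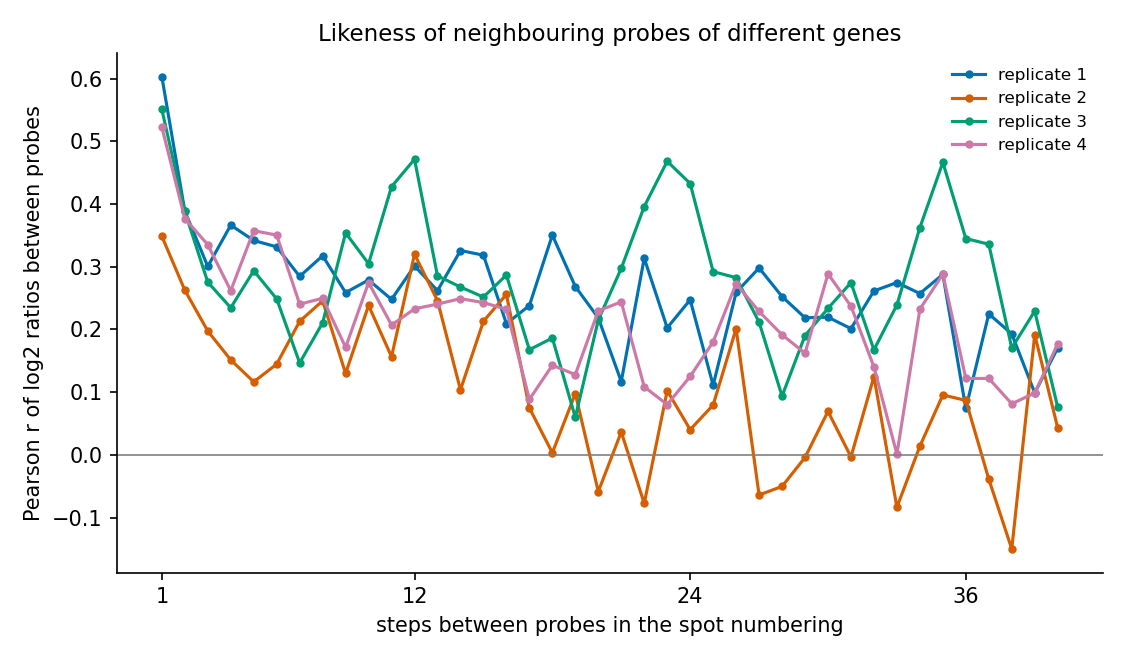
Pearson correlation of log2 ratios between listed probes of different genes (vertical axis) by their distance in the spot numbering (horizontal axis, in probes), one line per replicate array. Adjacent probes correlated at 0.35 to 0.60, and replicate 3 peaks again near 12, 24 and 36 steps.

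The first trbd probe has a neighbour of interest of another kind. The probe just before it in the spot numbering is listed as apolpp, the gene of the lipid carrier apolipophorin, and has no value on any array. Elsewhere on the array another apolpp probe had 0.48, 1.94, 1.53 and 1.85 on replicates 1 to 4. Over replicates 1, 3 and 4 that apolpp probe lay 0.34 from the first trbd probe, the second closest of 2772 probes and the closest with a listed gene. Whether the 2 patterns share a source, and whether the first probe reports trbd RNA, was not tested. The 2.98-fold ratio and the mean of 0.54 hold as turned and for the probes as listed, and the first may not report trbd.

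By the same measure the genes most like BomT3 over 4 arrays were Miox, Paics and mRpS34, at distances of 0.11, 0.18 and 0.28 among 747 genes. Miox, the inositol oxygenase gene, had 0.14, 1.13, 0.41 and 1.19 on replicates 1 to 4. Those most like Drs over 3 arrays were Osi19, tay and Gyf, at 0.08, 0.08 and 0.12 among 1227 genes, and after igl those most like SPE were CG6357 and CG31088, at 0.08 and 0.11. Those most like the mean of the trbd probes over 4 arrays were CG11155, CG2875 and Atf6, at 0.13, 0.16 and 0.22. These distances are the same in both readings. Among the 4 genes themselves Drs and SPE were closest, at 0.18 over replicates 1, 3 and 4. This placed Drs at rank 12 of 1227 genes by likeness to SPE, and SPE at rank 22 by likeness to Drs. BomT3 and trbd were 0.79 apart over 4 arrays, which include replicate 2, where they had 1.25 and -0.26. The distances of these pairs thus cover different arrays.

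The rest of both pathways was sparsely measured. Of 168 other genes on 10 immune lists, 59 had a probe with 1 listed gene and 10 had a value, each on at least 3 arrays. No gene of IMD recognition, of the JAK-STAT pathway, of the lysozymes or of phagocytosis had a value. Toll itself (Tl), its ligand gene spz, the adaptor genes Myd88 and tub, the kinase gene pll and the factor gene dl had a probe but no value. Among antimicrobial peptide and Bomanin genes, 5 of 40 had a probe with 1 listed gene. All 5 had a value, BomT3 and Drs among them.

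None of these 10 genes passed in either direction (0 of 10, against 0.139% of all genes tested). Their mean log2 ratios lay between -0.37 and 0.26, with a median of 0.01 against -0.01 over all 1444 genes. In the other reading they lay between -0.30 and 0.35, with a median of -0.05 against 0.00. The mean was larger than its SD for 1 of the 10 in each reading.

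In the Toll pathway, Dif, one of the factors freed by Toll signalling, had 0.17, -0.08, -0.03 and -0.06 on replicates 1 to 4 and a mean of 0.00 ± 0.11 (SD, n = 4). BomT2, a tailed Bomanin like BomT3, had 0.07, 0.36 and 0.23 on replicates 1, 3 and 4, above the median on each as turned, and a mean of 0.22 ± 0.14 (SD, n = 3; -0.17 ± 0.22 in the other reading). BomBc2, a Bomanin with a pair of joined Bomanin motifs, was at -0.16 ± 0.32 (SD, n = 3). The drosomycin-like gene Drsl5 had -0.26, -0.11 and -0.002 on replicates 1, 3 and 4, a mean of -0.12 ± 0.13 (SD, n = 3). Drsl5 thus lay below the median on replicates 3 and 4, where Drs lay above it as turned. Long cDNA probes may bind RNA of related genes, so values within the drosomycin and Bomanin families are uncertain.

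In the IMD pathway, Uev1A, part of the ubiquitin-conjugating complex that activates Tak1, had -0.32, 0.26, 0.64 and 0.48 on replicates 1 to 4 and a mean of 0.26 ± 0.42 (SD, n = 4; -0.30 ± 0.39 in the other reading). The negative regulator gene casp had 0.60, -0.11, -0.27 and -0.07 and a mean of 0.04 ± 0.38 (SD, n = 4). The gene nub, whose products restrain or promote peptide genes, had -0.03, -0.95 and -0.13 on replicates 1, 3 and 4 and a mean of -0.37 ± 0.51 (SD, n = 3; 0.35 ± 0.53 in the other reading). On replicates 3 and 4 Uev1A was on the same side of the median as the 4 genes and casp and nub were on the other. Outside both pathways, the catecholamine synthesis genes Ddc and Pu, used in melanization, were at 0.02 ± 0.33 and -0.15 ± 0.21 (SD, n = 4 each), and grnd, a receptor gene of JNK signalling, was at 0.02 ± 0.06 (SD, n = 3).

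**Figure D5:**
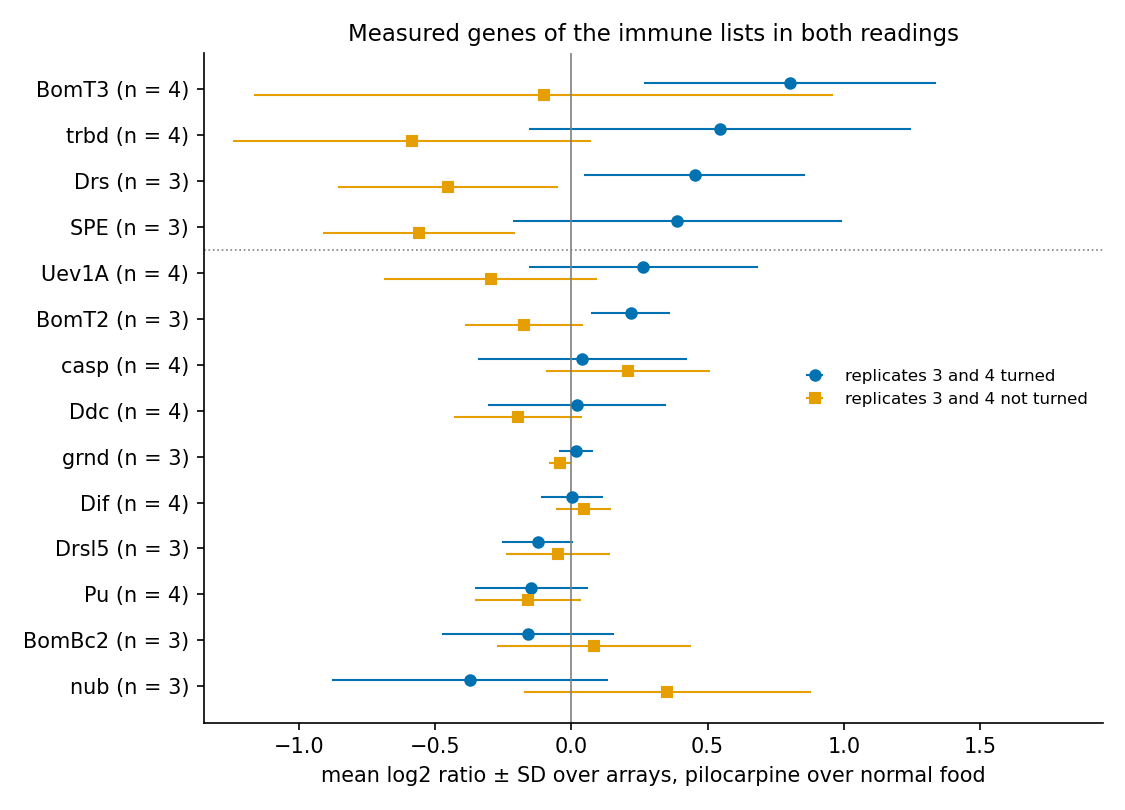
Mean log2 ratio with SD over arrays (horizontal axis) for the 4 immune genes (above the dotted line) and the 10 other measured genes of the immune lists (below it), with replicates 3 and 4 turned (circles) and not turned (squares); n is the number of arrays. The 4 genes lie between 0.39 and 0.80 in one reading and between -0.58 and -0.10 in the other, and the bars of both readings overlap for BomT3, trbd and SPE but not for Drs.

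Markers of the tissues that make these peptides were measured in part. Of 10 fat body markers 6 had a value, apolpp passed as higher (1.45 ± 0.67, SD, n = 4; limma adjusted p = 0.0274; higher on 4 of 4 arrays as turned) and the other 5 did not pass. In the other reading apolpp was at -0.24 and did not pass, nor did it with local medians. The fatty acid desaturase gene Desat1, which the fat body expresses, was at 0.78 ± 0.41 (SD, n = 4; -0.09 ± 0.98 in the other reading). Lsp2, Lsd-2, FASN1 and Yp2 were at 0.00, 0.13, 0.14 and 0.16 as turned, each smaller than its SD. In the other reading Lsd-2 was at -0.55 ± 0.17 and Yp2 at -0.345 ± 0.268 (SD, n = 3 each), both larger than their SD. FASN1, at -0.20 ± 0.34, and Lsp2, at 0.01 ± 0.32, stayed smaller than theirs (SD, n = 3 each). The 6 markers lay between 0.00 and 1.45 as turned and between -0.55 and 0.01 in the other reading. Of 7 haemocyte markers, Col4a1 had a value, at 0.13 ± 0.45 as turned and -0.34 ± 0.23 in the other reading (SD, n = 3). The markers NimC1, crq and eater had a probe but no value. The part of fat body RNA in the ratios of the 4 genes was not tested. A ratio of channels holds no level, so the labelled tissue could be checked only by which markers had a value. The photoreceptor genes Arr1 (0.24 ± 0.39) and inaD (-0.06 ± 0.30) and the glial gene Gs2 (0.09 ± 0.45) had one (SD, n = 4 each). No neuronal marker had a value, but only 1 of 5 had a probe with 1 listed gene. For photoreceptor and glial markers 4 of 7 and 3 of 5 had such a probe. The lack of neuronal values thus does not show whether neuronal RNA was present. Of the gut markers Jon25Biii was at 0.10 ± 0.30 (SD, n = 3) and Mal-A2 at -0.26 ± 0.73 (SD, n = 4).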

How the data were processed

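Heads of pilocarpine-fed and untreated males were compared on 4 two-colour cDNA arrays. Per the labels and the design text, spots were quantified in GenePix Pro 6.0 and ratio-normalized in Acuity 4.0, with filters on intensity, saturation, flags and uniformity. The authors deposited one log2 ratio per spot and array; background correction and numerator are not given in the sources used here. The log base was read from a ceiling of 16.61, the log2 of 100000, found in 11 cells, which were dropped. Paired spots were averaged (3236 probes), each array was centred on its probe median (deposited medians -0.14, -0.48, -0.29 and -0.42), replicates 3 and 4 were turned, and probes of a gene were averaged. Of these probes 1510 had 1 listed gene in an old platform annotation, 13 several and 1713 none. Of the 1510 probes, 1481 had a gene ID that matched the NCBI table of the Release 6 assembly. Arrays held 969 to 1444 genes. A limma fit (version 3.58.1, R 4.3.3; lmFit and eBayes, two-sided, Benjamini-Hochberg) covered the 1444 genes with 3 or 4 values and was checked on simulated data. Array rows were inferred from the spot numbering, which does not state them; a local median needed 3 probes. Genes named were the 4 genes, the other measured genes of the immune and marker lists, the 3 genes with the nearest ratios, and genes past the threshold. The genes and lists were chosen with earlier results of these data known. No sequences are shown and no coordinates are given, as the array's build was not compared.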

Additional observations from a re-analysis of the deposited data

How the results depend on the processing

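Each ratio pairs a pilocarpine and a normal-food pool from the same set, so the fit on ratios is the paired analysis. With replicates 3 and 4 not turned, the means were -0.10 for BomT3, -0.45 for Drs, -0.56 for SPE and -0.58 for trbd, each farther from the turned mean than 1 SD. As turned, trbd by its first probe alone was at 1.58. Leaving out each replicate gave 0.65 to 1.02 for BomT3, 0.29 to 0.68 for Drs, 0.11 to 0.71 for SPE and 0.33 to 0.81 for trbd; Drs was lowest without replicate 4 (0.29) and highest without replicate 1 (0.68). With 1 probe per gene trbd was at -0.03. Without centring the means were 0.83, 0.64, 0.58 and 0.57 for BomT3, Drs, SPE and trbd. Higher genes past the threshold (limma) numbered 2, and 0 not turned, 0 by block and row, 1 with 1 probe per gene, 4 with the dye as a second term, 1 among genes on all 4 arrays and 0 among single probes (174 at an unadjusted p under 0.05). They numbered 0 to 13 when one replicate was left out, among genes on all remaining arrays: 4 when it was replicate 1, 13 for replicate 2, 0 for replicate 3 (43 at an unadjusted p under 0.05) and 1 for replicate 4. No gene was lower under any of these settings. The local centring, the equal weight to both dyes and the single trbd probes were chosen in this form after seeing the data, and the local centring could not be computed for SPE.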
